A study of Mus musculus with 4 samples.

Results

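The 10 genes described here are intermediate filament genes and response genes of reactive astrocytes: Gfap, Vim, Nes, Serpina3n, Cd44, Osmr, Timp1, Lcn2, Steap4 and Cp. They were taken by symbol, as every probeset whose only platform gene symbol is 1 of the 10, and this gave 29 of the 45101 probesets on the array. All 10 genes had at least 1 probeset. Hippocampal RNA came from male DBA/2J mice, an inbred strain, labelled as 8 to 10 weeks old. Control mice drank untreated water (0 mg/kg per day), and treated mice drank water with fluoxetine, a blocker of serotonin reuptake, at an intended 18 mg/kg per day for 21 days. Each group of 12 mice gave 2 RNA pools of 6 mice each, with 1 array for each pool, so that a value is a mean over mice and the spread between individual mice was not measured. The submitters also describe a tail suspension test, without saying whether these mice took it.

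Astrocytes that meet injury, inflammation or strong neuronal activity enlarge their filament network, in which GFAP and vimentin are the main subunits and nestin is the subunit typical of stem cells and immature glia. They also secrete acute-phase proteins and switch on cytokine receptors, many of them under the oncostatin M, gp130 and STAT3 pathway. Glia of the healthy adult hippocampus carry GFAP at rest, and the radial stem cells of the dentate gyrus carry GFAP, vimentin and nestin together.

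The arrays held between 16612 and 16866 probesets per array at or above an intensity of 100, the minimum that the submitters set for expression above background. A probeset was tested if it reached 100 on at least 2 of the 4 arrays, which 16938 did. The 12 hippocampal neuron markers checked were all tested, and the 7 annotated neutrophil and blood markers were all under 100 on every array. All 18 spike-in probesets, whose RNA is added in fixed amount, were higher in both fluoxetine arrays, by a median log2 of 0.36, and the median over tested probesets was -0.04. The part of that shift in the results was not tested. Pool 1 of each group stood apart in Ttr, the transthyretin gene of choroid plexus, which measured 37856 (control) and 51101 (fluoxetine) in pool 1, against 2002 (control) and 4429 (fluoxetine) in pool 2. In hippocampal tissue, fewer cells of a type and less RNA per cell cannot be told apart.

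Gfap, Vim and Serpina3n rose after fluoxetine at each of their 7 probesets, and these were the only probesets of the 10 genes that could be tested. Group differences ran from log2 1.20 for Serpina3n to 2.78 for Gfap. By limma with Benjamini-Hochberg adjustment, all 7 passed an adjusted p of 0.05, where 1.72% of all 16938 tested probesets passed in either direction and 1.03% passed as higher. In all 7 the fluoxetine arrays lay above both control arrays, which held for 21.9% of tested probesets. Of the other 22 probesets, 4 reached 100 on fluoxetine pool 1 alone (Cd44 at 2 probesets, Osmr and Timp1), and 18 were under 100 on all 4 arrays, among them all probesets of Nes, Lcn2, Steap4 and Cp.

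Gfap encodes the intermediate filament protein used as the standard marker of astrocytes. At its brightest probeset (1426509_s_at) the intensity was 461 and 385 without fluoxetine and 3222 and 2606 with it, pool 1 first here and throughout. The lowest fluoxetine value was 5.65 times the highest control value, so the groups lay far apart. The geometric mean went from 422 to 2898, 6.87-fold, or log2 2.78 ± 0.14 (SE, n = 2 pools per group, limma adjusted p = 0.0172). At 1426508_at the values were 384 and 337 in controls against 2639 and 1863 (log2 2.62 ± 0.19, adjusted p = 0.0252). At 1440142_s_at they were 199 and 144 against 1067 and 694 (log2 2.34 ± 0.26, adjusted p = 0.0398). The 3 probesets gave the same direction with folds of 5.08 to 6.87, and they stood at places 5, 7 and 9 among all 16938 tested probesets ordered by the size of the rise.

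Vim encodes vimentin, which assembles with GFAP in reactive astrocytes and is also made by endothelial cells, fibroblasts and microglia. The brightest probeset (1438118_x_at) read 1698 and 1684 without and 6897 and 4905 with fluoxetine, a rise of log2 1.78 ± 0.17 (3.44-fold, adjusted p = 0.0352). The control pools differed there by a ratio of 1.01, while fluoxetine pool 1 was 1.41 times pool 2, and the groups did not overlap at any Vim probeset. Probeset 1456292_a_at read 724 and 716 against 3494 and 2296 (log2 1.98 ± 0.21, adjusted p = 0.0380). Probeset 1450641_at read 443 and 406 against 2293 and 1353 (log2 2.05 ± 0.26, adjusted p = 0.0460), and did not pass with a filter of 1 array at 100 (adjusted p = 0.0567). The 3 probesets placed vimentin transcript at 3.44 to 4.16 times the control level, places 15, 19 and 24 in the same order. The suffix of 1438118_x_at marks probes that can match other transcripts, and so does that of the Gfap probesets 1426509_s_at and 1440142_s_at.

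Serpina3n encodes a secreted serine protease inhibitor of the acute-phase family that astrocytes make when reactive. Its 1 probeset (1419100_at) read 1362 and 1147 in controls, and 3253 and 2546 after treatment. Both fluoxetine pools were above both controls, by at least 1.87 times. The rise was log2 1.20 ± 0.15 (2.30-fold, adjusted p = 0.0463), place 66 of 16938. It did not pass with the filter of 1 array at 100 (adjusted p = 0.0575). The mouse Serpina3 cluster holds several closely similar genes, so that signal from a neighbouring copy at this probeset was not tested.

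**Figure D1:**
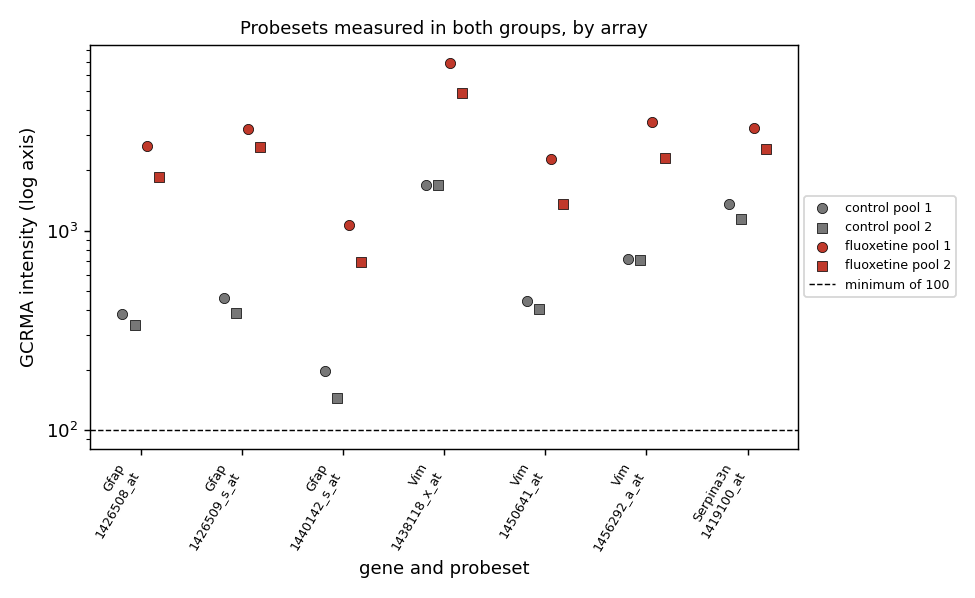
GCRMA intensity on a log axis for the 7 tested probesets of Gfap, Vim and Serpina3n. Each point is 1 array (grey, control pools; red, fluoxetine pools; circles, pool 1; squares, pool 2), the dashed line is the minimum of 100, and in all 7 both red points lie above both grey points with fluoxetine pool 1 the highest.

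These 7 calls rested on all 4 arrays together. With any 1 array left out, limma called 0 of the 16938 probesets (2657 to 3515 at an unadjusted p under 0.05), and the adjusted p of the 7 lay between 0.0667 and 0.201, while their log2 differences stayed between 1.03 and 2.93. With no intensity filter 0 of 45037 probesets passed and these 7 had an adjusted p of 0.157 to 0.232.

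The sequences at the start sites of these 3 genes are shown because they are the members that rose together. They are RefSeq sequences (GRCm38.p6) from 250 bases before to 50 bases after the annotated start, and all 10 genes had an entry. The letters searched, on both strands, were the STAT motif TTCNNNGAA, the AP-1 motif TGANTCA, the TATA box TATAAA and the CCAAT box CCAAT, and matches are in capitals.
Gfap (chr11:102897151-102897450, minus strand): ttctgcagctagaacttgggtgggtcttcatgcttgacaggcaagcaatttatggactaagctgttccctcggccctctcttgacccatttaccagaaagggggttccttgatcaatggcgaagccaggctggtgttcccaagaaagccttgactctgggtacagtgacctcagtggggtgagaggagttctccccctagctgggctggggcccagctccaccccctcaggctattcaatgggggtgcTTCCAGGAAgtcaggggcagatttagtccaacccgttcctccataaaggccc
Vim (chr2:13574061-13574360, plus strand): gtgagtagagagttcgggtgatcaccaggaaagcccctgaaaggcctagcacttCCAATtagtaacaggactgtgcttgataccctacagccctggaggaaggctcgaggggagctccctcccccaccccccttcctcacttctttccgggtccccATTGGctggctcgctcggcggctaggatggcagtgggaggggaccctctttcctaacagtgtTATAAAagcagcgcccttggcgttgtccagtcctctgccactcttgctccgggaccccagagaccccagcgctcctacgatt
Serpina3n (chr12:104406458-104406757, plus strand): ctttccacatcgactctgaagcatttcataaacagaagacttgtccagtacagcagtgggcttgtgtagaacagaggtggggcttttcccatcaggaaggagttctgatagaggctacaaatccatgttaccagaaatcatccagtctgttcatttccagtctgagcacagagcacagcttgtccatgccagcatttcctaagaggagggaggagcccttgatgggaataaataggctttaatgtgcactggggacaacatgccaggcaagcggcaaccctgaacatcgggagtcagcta

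Gfap had 1 match, the STAT letters TTCCAGGAA, beginning 2 bases before the annotated start. Vim had a TATA box at position -32 and CCAAT letters at -196 and, on the opposite strand, at -94. Serpina3n had no match to the 4 motifs in this window. Among 32851 promoter sequences of the same length, 8.3% held the STAT letters, 7.81% AP-1, 13.6% the TATA box and 37.4% CCAAT. STAT letters were also found 116 bases before the start of Steap4 (TTCCCGGAA), a gene under 100 on all 4 arrays. Such matches describe letters only, and binding was not measured.

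Cd44, the cell-surface receptor for hyaluronan, reached 100 in a single pool. At probeset 1434376_at the controls measured 44.5 and 66.7, and the fluoxetine arrays 325 and 98.0. At 1423760_at the controls measured 35.2 and 35.4 against 293 and 88.2. Fluoxetine pool 1 alone was above the minimum at both probesets, and the other 3 arrays, under it, are not ordered here. With all control arrays under 100, the mean of both fluoxetine arrays was taken against 100 and came to 1.78-fold and 1.61-fold. Only 1 of the 2 fluoxetine arrays in that mean was measured, with pool 2 under 100, so these are not lower bounds. Without pool 1 no value at 100 remained, here and at Osmr. These probesets were not tested under the main filter. With a filter of 1 array at 100 they had an adjusted p of 0.210 and 0.142. The remaining Cd44 probesets were under 100 everywhere, and 1 of them (1452483_a_at) was at 42.4 in fluoxetine pool 1 against 5.93 to 6.24 on the other 3 arrays.

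Osmr encodes the subunit of the oncostatin M receptor that pairs with gp130. Its probeset 1418674_at read 32.5 and 48.0 in controls against 179 and 96.6 after treatment. The mean of both fluoxetine arrays was 1.32-fold against 100, with 1 of the 2 measured, and is no lower bound. This probeset did not pass when let in by the filter of 1 array (adjusted p = 0.103). The other 2 Osmr probesets lay between 4.39 and 5.72 on all arrays. Timp1, a secreted inhibitor of matrix metalloproteinases, read 4.13 and 5.33 in controls, 196 in fluoxetine pool 1 and 20.6 in fluoxetine pool 2. Pool 1 was the only array above 100, and as the fluoxetine mean of 63.6 was under 100, no fold is given. The adjusted p was 0.161 with the filter of 1 array. All 4 of these Cd44, Osmr and Timp1 probesets reached 100 on fluoxetine pool 1 and on no other array. Among the 539 probesets of the whole array that reached 100 on exactly 1 array, 142 (26.3%) did so on fluoxetine pool 1.

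Nestin, the filament of neural stem cells, was under 100 at its 3 Nes probesets, between 4.16 and 9.11 on all arrays. Lcn2, the siderophore-binding lipocalin known to be induced in inflamed astrocytes, read 6.15 and 6.03 in controls against 6.14 and 6.26. Steap4, a metalloreductase of iron and copper, lay between 4.93 and 6.42 at its 2 probesets. Cp, the copper-carrying ferroxidase ceruloplasmin, had 8 probesets between 4.24 and 56.8, and the groups overlapped at all 8. At the brightest Cp probeset (1448734_at) controls read 44.5 and 49.0, against 56.8 and 43.3 after treatment. Of the 18 member probesets under 100 on all arrays, 8 had both fluoxetine values above both control values, against 33.1% of all 27560 probesets at such levels. At these intensities a difference was not detectable, and the genes cannot be called absent.

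**Figure D2:**
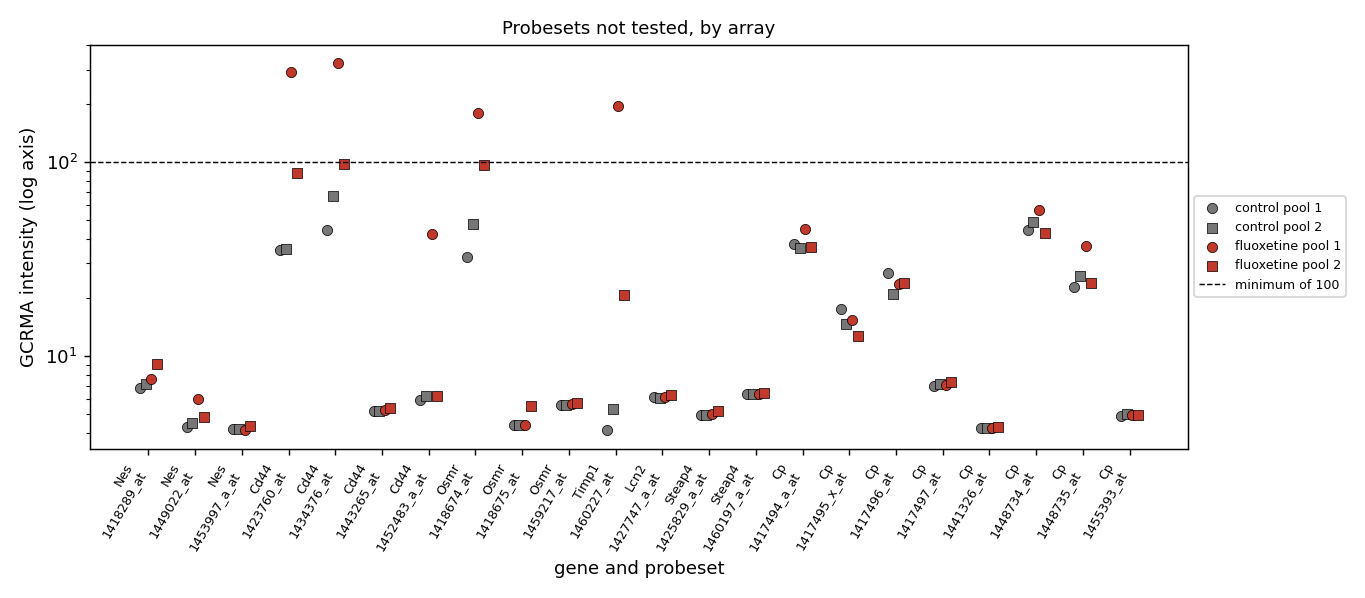
GCRMA intensity on a log axis for the 22 probesets that were not tested, 1 point per array (grey, control; red, fluoxetine; circles, pool 1; squares, pool 2; dashed line, the minimum of 100). Points above the line belong to fluoxetine pool 1 at Cd44, Osmr and Timp1, and those of Nes, Lcn2, Steap4 and Cp all lie below it.

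The fluoxetine pools differed from each other in these genes. Pool 1 was above pool 2 at all 7 tested probesets, by log2 0.31 to 0.62 for Gfap, 0.49 to 0.76 for Vim and 0.35 for Serpina3n. Over all tested probesets the SD of that difference was 0.198 and its median 0.01. Gaps of either sign smaller than those of the 7 were seen at 91.0% to 99.5% of tested probesets. In the control pools, pool 1 was also the higher at all 7, by log2 0.01 to 0.46, where the SD over all tested probesets was 0.189. Over all tested probesets pool 1 was the higher at 55.7% in controls and at 52.9% with fluoxetine. The summed level of the 13 annotated choroid plexus markers, nearly all of it Ttr, was 38555 and 52065 in pools 1 and 2530 and 4822 in pools 2, and its part in the pool difference was not tested. With fluoxetine pool 1 left out, the log2 differences of the 7 were 1.03 to 2.63.

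**Figure D3:**
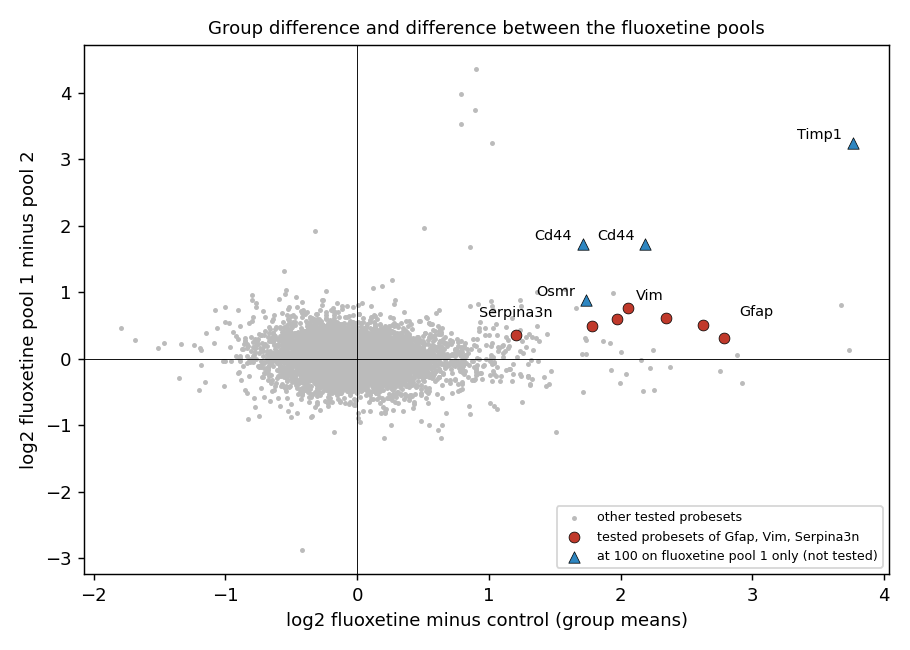
Each point is a probeset, with the log2 difference between group means on the x axis and the log2 difference between fluoxetine pools 1 and 2 on the y axis (grey, other tested probesets; red, the 7 tested probesets of Gfap, Vim and Serpina3n; blue triangles, 4 probesets at 100 on fluoxetine pool 1 only). The red points lie at 1.20 or more on the x axis and above 0 on the y axis, and Timp1 and Cd44 lie highest among the marked points. The blue triangles lie above 0 on the y axis by the way they were chosen.

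Other genes reported for reactive astrocytes were taken from a list of 30, of which 28 were annotated, 7 tested, 17 under 100 on all arrays and 4 in between. By limma 0 of the 7 passed at the brightest probeset (5 had an unadjusted p under 0.05), where 1.31% of all 9030 tested genes passed as higher, 0.554% as lower and 22% had an unadjusted p under 0.05 in either direction, which is the background for such counts of every list. All 7 had a log2 difference above 0, with a median of 0.63, beside -0.03 over all tested genes. S1pr3, a sphingosine-1-phosphate receptor, read 130 and 126 in controls against 691 and 347 (log2 1.94 ± 0.33, adjusted p = 0.0707). Ptgs2, the inducible cyclooxygenase, read 334 and 237 against 611 and 802 (log2 1.31 ± 0.21, adjusted p = 0.0675), with pool 2 the higher. The count of 0 became 1 with quantile normalization, and 3 with median centring and with trend and robust variance settings. The 4 genes in between, named after their values were seen, were Hspb1, Socs3, Tnc and Serping1. Each reached 100 on fluoxetine pool 1 alone, as did 26.3% of the 539 probesets that reached 100 on exactly 1 array. The microglia genes C1qc and Fcer1g and the choroid plexus gene Kcnj13, also named after their values were seen, did so too. The iron genes Heph and Slc11a2, named likewise, reached 100 on control pool 1 alone. On fluoxetine pool 1 Hspb1, a small heat shock protein, was at 406 against 78.8 in fluoxetine pool 2 and at most 55.6 in controls. Socs3, the feedback inhibitor of STAT3 signalling, was at 115 there, at 17.5 in fluoxetine pool 2 and at 14.4 and 17.0 in controls.

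Of 20 genes of the gp130 cytokine pathway, Osmr among them, 18 were annotated and 8 tested, with 0 passing at the brightest probeset by limma (4 at an unadjusted p under 0.05) and a median of 0.06. Stat3, Socs3 and Clcf1 are on the reactive astrocyte list too. The ligand genes Osm, Il6, Lif and Clcf1 were under 100 on all arrays. Stat3, the transcription factor of the pathway, measured 227 and 242 in controls against 418 and 316 at its brightest probeset (log2 0.63 ± 0.15, adjusted p = 0.111). Its other tested probeset rose, from 144 and 145 to 260 and 241 (log2 0.79 ± 0.07, adjusted p = 0.0350). Il6st, which encodes gp130 itself, was at log2 0.40 ± 0.07 (adjusted p = 0.0726), and at 0.04 at its other tested probeset. Of the 8 tested genes, 5 had a log2 difference above 0. Tyk2 (log2 -0.30 ± 0.08, adjusted p = 0.147) and Pias3 (-0.34 ± 0.08, adjusted p = 0.115), named after their values were seen, lay the other way.

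Filament genes other than the members had 8 tested of 11, of which 1 rose and 0 fell, with a median of 0.25. That gene was Nefm, the medium neurofilament of neurons, 4101 and 3996 in controls against 6030 and 5836 (log2 0.55 ± 0.07, adjusted p = 0.0445). It did not pass with the filter of 1 array at 100. Synm, named after its values were seen, encodes the astrocyte filament partner synemin and lay the other way, at 756 and 566 against 445 and 452 (log2 -0.54 ± 0.15, adjusted p = 0.139).

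Most genes of resting astrocytes did not pass. Of 17 homeostatic astrocyte genes, all tested, 2 rose and 0 fell, with a median of 0.11: Aqp4, the water channel of astrocyte endfeet (log2 1.07 ± 0.08, adjusted p = 0.0262), and Kcnj10, the potassium channel Kir4.1 (log2 0.60 ± 0.07, adjusted p = 0.0429). Of the 17, 11 had a log2 difference above 0, and 6 had an unadjusted p under 0.05 by limma. Fgfr3 (log2 -0.44 ± 0.10, adjusted p = 0.110) and Slc4a4 (-0.20 ± 0.07, adjusted p = 0.209), named after their values were seen, lay the other way. The 17 genes summed to 145173 and 151173 in controls against 157084 and 158163. With the filter of 1 array at 100, 1 of the 17 passed. The glutamate transporter gene Slc1a2 missed the threshold at its brightest probeset (log2 0.11 ± 0.06, adjusted p = 0.370) and rose at another (log2 0.76 ± 0.10, adjusted p = 0.0494). Relative to the mean log2 of these 17 genes on the same array, the fluoxetine pools were higher by log2 2.65 for Gfap, 1.65 for Vim and 1.07 for Serpina3n, at the brightest probeset of each. No test was run on these relative values. Stem cell and radial glia genes, the other cells with GFAP and vimentin, had 7 of 12 annotated genes tested, 0 passing by limma (2 at an unadjusted p under 0.05) and a median of 0.02. Hes5, a Notch target, was at log2 -0.71 ± 0.20 (adjusted p = 0.148) and Fabp7 at 0.24 ± 0.14 (adjusted p = 0.358). The untested genes Hes1, Mki67, Pax6, Tfap2c and Top2a were under 100 on all arrays, so this median does not cover them.

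Markers of other cells that make vimentin or CD44 included genes that rose. Of 9 tested microglia genes 4 rose and 0 fell, with a median of 0.79: the complement genes C1qb (log2 1.10 ± 0.08) and C1qa (0.79 ± 0.09), the leukocyte tetraspanin gene Cd53 (0.86 ± 0.10) and Tyrobp (0.81 ± 0.07), an adaptor of microglial receptors, with adjusted p between 0.0252 and 0.0427. The 14 annotated microglia genes summed to 4770 and 4683 in controls against 7645 and 7401, with Itgam, Tmem119 and Trem2 under 100 on all arrays. Of 10 tested endothelial and mural genes 2 rose and 0 fell, with a median of 0.25. The 2 were the pericyte genes Rgs5 (log2 0.59 ± 0.06, adjusted p = 0.0380) and Abcc9 (0.52 ± 0.07, adjusted p = 0.0495). Of the 10, 7 had a log2 difference above 0. Acta2 of the same list, named after its values were seen, lay the other way (log2 -0.27 ± 0.08, adjusted p = 0.165). The sums were 5495 and 5500 in controls against 6742 and 6539, with Cdh5, Kdr, Pecam1 and Tie1 under 100. Rgs5 passed at 1 of its 4 tested probesets, which ran from log2 0.59 to 0.72. Abcc9 read 102 and 95.5 in controls, near the minimum of 100. With a pseudocount of 32, 1 of the 10 passed. Of 7 tested meningeal and fibroblast genes Col3a1, a fibrillar collagen, rose from 59.0 and 56.4 to 239 and 223, at least 2.31-fold against 100 (adjusted p = 0.00934). Its control values are under the minimum, so it was tested only through the fluoxetine arrays, and that p rests on the spread of values at background. The list's median was 0.19 and its sums were 12852 and 19461 in controls against 12330 and 8796, most of it Ptgds, the prostaglandin D synthase gene, named after its values were seen (10285 and 15944 against 8821 and 5295), with Col1a1, Foxc1 and Slc6a13 under 100. The part of these cells in the rise of Vim and in the Cd44 and Timp1 values was not tested.

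Choroid plexus, oligodendrocyte and ependymal markers gave 0 calls by limma (0, 0 and 1 at an unadjusted p under 0.05). Only 3 of 13 annotated choroid plexus genes were tested, and besides Ttr, Kl overlapped between groups at 120 and 49.0 against 120 and 31.7. The 9 tested oligodendrocyte genes had a median of -0.06, with Mog at log2 -0.16 ± 0.07 and Cldn11 at 0.16 ± 0.08. Rarres2, the only ependymal marker tested, was at 0.43 ± 0.07 (adjusted p = 0.0661), with Foxj1, Ccdc153, Tmem212, Rsph1 and Dnah11 under 100. Of the 12 hippocampal neuron markers 1 fell, Dsp, a desmosomal protein of granule cells (log2 -1.79 ± 0.24, adjusted p = 0.0495), and the median was -0.06. Calb1, the calbindin gene, missed the threshold at its brightest probeset (log2 -0.45 ± 0.08, adjusted p = 0.0771) and fell at another (log2 -1.16 ± 0.14, adjusted p = 0.0436).

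Iron and copper genes that work beside Cp and Steap4 had 7 of 15 annotated genes tested and 0 passing by limma (4 at an unadjusted p under 0.05), with a median of 0.26. The iron exporter gene Slc40a1 read 148 and 180 in controls against 262 and 279 (log2 0.73 ± 0.11, adjusted p = 0.0641), and the copper transporter gene Slc31a1 at log2 0.47 ± 0.12 (adjusted p = 0.129). With trend and robust variance settings 3 of this list passed. Matrix and hyaluronan genes beside Cd44 and Timp1 had 6 of 14 tested and 0 passing (2 at an unadjusted p under 0.05), with a median of 0.15. Ncan, a chondroitin sulfate proteoglycan, was at log2 0.65 ± 0.14 (adjusted p = 0.0926) and Timp4, the inhibitor related to Timp1, at -0.22 ± 0.07 (adjusted p = 0.176). All 3 hyaluronan synthase genes, Has1, Has2 and Has3, and Mmp2, Mmp3, Mmp9 and Mmp14 were under 100 on all arrays.

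**Figure D4:**
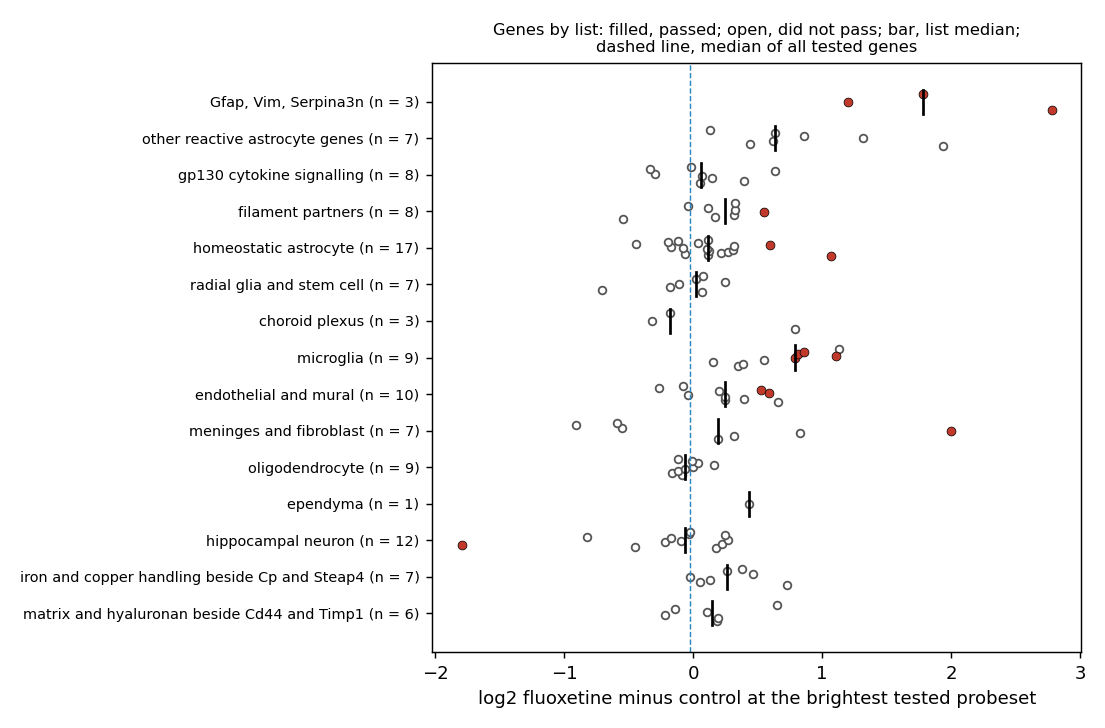
Log2 difference, fluoxetine minus control, at each gene's brightest tested probeset, by list (filled points passed an adjusted p of 0.05, open points did not, bars are list medians, and the dashed line is the median of -0.03 over all tested genes). Gfap lies farthest right at 2.78, and the medians run from -0.18 for choroid plexus to 0.79 for microglia below the median of 1.78 for the tested members.

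The genes whose pattern over the 4 arrays was most like that of Gfap were Nptx2, Inhba, S100a6, Bdnf and Npy, by the root mean square distance between log2 profiles, each relative to its own mean. The distances were 0.18, 0.19, 0.27, 0.34 and 0.36, and the median over all 9027 other genes was 1.41. Unlike Gfap, Nptx2 and Npy were higher in fluoxetine pool 2 than in pool 1, and Bdnf was nearly level (2700 in pool 1 and 2741 in pool 2). Vim was nearest to Lgals1 (0.07), Cd93 (0.15), Col3a1 (0.18), Serpinf1 (0.19) and S1pr3 (0.19), with a median distance of 0.92. Lgals1, the galectin 1 gene, read 465 and 451 in controls against 1693 and 1368 (log2 1.73 ± 0.12, adjusted p = 0.0252). Nptx2, Inhba, Cd93 and Col3a1 were under 100 in both control pools, so that they were tested only through the fluoxetine arrays and their distances rest on values at background. The named genes were chosen as the nearest, so their distances lie under these medians by that choice. A gene without change lies farther from a member with a larger rise, so each median also follows the size of that rise. These distances rest on 4 arrays and describe the values only.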

How the data were processed

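The 4 arrays (Affymetrix Mouse Genome 430 2.0) hold 1 intensity per probeset on a linear scale. Per the labels' protocols the authors used ArrayAssist and the GCRMA algorithm, to make these deposited intensities, with no version number stated. GCRMA pulls dim probesets to a common floor, so low values show little spread.

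Intensities were taken to log2. The 64 Affymetrix controls were left out. Probesets were named from the platform table, and 34754 of 34958 with 1 symbol matched the RefSeq table by gene number. Fits ran across all tested probesets in limma 3.58.1 under R 4.3.3 (lmFit, eBayes, two-sided, threshold 0.05), and SE is limma's. The procedure was run on simulated data drawn from limma's own variance model. That run checks the code and cannot show whether the model holds for these arrays. An exact permutation test of 2 against 2 cannot go below p = 0.333. A fold against a group under 100 on all arrays was taken against 100. List genes stand at their tested probeset of highest mean log2. Of a list, up to 4 passing genes are named by size of change, or else the 2 largest changes, and any other named gene is stated to be chosen after its values were seen. Members and lists were chosen with earlier results of these data known. The labels call the pools biological replicates, and SE and p-values rest on the spread between pools. That spread is not a probeset's own alone, since eBayes borrows it in part across all tested probesets. Alternatives are in the closing section.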

Additional observations from a re-analysis of the deposited data

Results flagged for a closer look

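All 18 spike-in probesets, which stand outside the gene comparison, were higher in the fluoxetine arrays than in the control arrays, by a median log2 of 0.36 (0.17 to 0.55). Their part in the gene differences was not tested.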

How the results depend on the processing

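The 7 tested probesets of Gfap, Vim and Serpina3n kept their upward direction under every alternative in which they were tested. All 7 passed with 100 required on all 4 arrays, a floor of 100, median centring, quantile normalization, a pseudocount of 32, trend and robust variances, and array weights. With 100 required on 1 array, 5 of 11 passed (3 of Gfap, 2 of Vim), and 163 probesets in all. With no intensity filter 0 of 29 passed (8 at an unadjusted p under 0.05) and 0 of all probesets (5396). Without probesets ending in _s_at or _x_at only 4 were tested, and all 4 passed. Trend and robust variances called 532 probesets in all. With the pool number as a replicate block, 2 of the 7 passed, both of Gfap, and 9 probesets in all. The third Gfap probeset (adjusted p = 0.0624), Serpina3n (0.0833) and the 3 Vim probesets (0.0922 to 0.0954) lost the call. The labels give the pools a number and name no pairing. Pool 1 was the higher in both groups at all 7 and in Ttr. Whether pools of the same number belong together was not tested. Over tested probesets, pool 1 deviations correlated between groups at 0.14, across genes. Leaving out 1 array gave counts from 0 to 0 for the members and for all probesets alike (all 7 members at an unadjusted p under 0.05). Of the list genes named by the rule, Ttr (-1.33 to 2.91) and Kl (-1.28 to 0.64) changed direction with 1 array left out, and no other did under the alternatives run. Over all alternatives, 75 values of these genes lost and 8 gained a call. Causes of these changes were not tested. The number of arrays limits the precision.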

Other observations

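Of the reactive list, further genes were picked after their values were seen. Tm4sf1, a tetraspan membrane protein gene, read 202 and 173 in controls against 606 and 189 with fluoxetine, pool 1 first (log2 0.86 ± 0.55, limma adjusted p = 0.416), and its groups overlapped. Emp1 and Amigo2 were under 100 on all arrays, at 14.1 and 14.0 against 33.5 and 19.5 for Emp1 and at 47.1 and 30.8 against 33.6 and 27.1 for Amigo2.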
